A study of Mus musculus with 16 samples.

Results

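The RNAs described here encode the DEAD-box and DEAH-box helicases, taken as every RNA of the deposited table whose symbol starts with Ddx or Dhx followed by a digit. The rule found 50 of 12900 RNAs, 33 with a Ddx and 17 with a Dhx symbol. RNA was measured by RNA-Seq in NIH/3T3 cells, an established line of mouse embryonic fibroblasts, after the cells had extended protrusions through the 3 μm pores of a filter. All cells carried a β-globin reporter under doxycycline control, with the 3′UTR of β-globin in the control line (HBB) and the 3′UTR of Pkp4, which localizes RNA to protrusions, in the other line (Pkp4 cUTR). From each line, 4 samples of protrusions (Ps, the underside of the filter) and 4 of cell bodies (CB, its upper side) were sequenced, 16 samples in 4 groups. Both lines were stably transduced, received 1 μg/ml doxycycline for 3 days, spent 2 h on the filters without serum and 1 h with lysophosphatidic acid (LPA) below the filter, and were fixed for 10 min in 0.3% paraformaldehyde. Protrusions and cell bodies came from separate filters. The paper calls the replicates independent.

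DEAD-box and DEAH-box proteins use ATP to unwind or clamp RNA and to remodel complexes of RNA and protein. They are named after the residues of a conserved ATPase motif (motif II), and together they accompany an RNA from transcription and splicing through ribosome assembly and nuclear export to translation and decay. DEAD-box proteins open short stretches locally, whereas many DEAH-box proteins move along a strand. Several of them, Ddx1, Ddx3x, Ddx6, Dhx9, Dhx36 and Dhx30 among them, are known from RNA granules or transport complexes of the cytoplasm. The values below concern the RNAs that encode these proteins, not the proteins.

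The annotation (GENCODE vM21 of GRCm38, the assembly also called mm10) held codons of such a motif for most coding members, and the motif is shown because it is what the family is named for. Of 49 coding members, 26 held in-frame codons for DEAD, 9 for DEAH and 3 for DECD, and 12 held none of these (Ddx21, Ddx28, Ddx50, Ddx52, Ddx58, Dhx9, Dhx30, Dhx32, Dhx34, Dhx36, Dhx57 and Dhx58). Among all 11349 coding RNAs searched, on the coding strand of 1 transcript per gene, 1.67% held any of them. A match is a match of letters only, as in Ddx17, which held both DEAD and, elsewhere, DECD. Nor did it always follow the symbol: Dhx29 held DEAD, at codon 1118, and Ddx11 held DEAH, at codon 390. The stretches below run 5′ to 3′ on the coding strand, with the codons of the motif in capitals. They come from 5 DEAD members and 2 DEAH members that differed between fractions, and from the pair Ddx39 and Ddx39b.
Ddx3x: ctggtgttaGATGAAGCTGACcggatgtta
Ddx1: ctggtcctgGATGAAGCAGATgggcttctc
Ddx6: atagtgctaGATGAGGCAGATaaattgttg
Ddx46: gttgttttaGATGAAGCAGACagaatgttt
Ddx55: ctggtgctgGACGAGGCAGACagactgctc
Dhx33: gtcattttgGACGAGGCCCATgagcggact
Dhx37: gtgatcattGACGAAGCCCATgagcggagc
Ddx39: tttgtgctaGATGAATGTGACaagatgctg
Ddx39b: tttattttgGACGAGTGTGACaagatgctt
These start in the coding sequence with the motif at codon 347 (Ddx3x), 370 (Ddx1), 246 (Ddx6), 529 (Ddx46), 171 (Ddx55), 185 (Dhx33), 368 (Dhx37), 195 (Ddx39) and 196 (Ddx39b). Not every member is a helicase gene. Dhx58os is an antisense RNA named for Dhx58, with which it shares 141 exon bases. Ddx26b is annotated under the newer name Ints6l and was listed here as a member without a helicase core. Its DEAD codons, at codon 596, are counted among the 26 as a match of letters. No RNA of the table carried the symbols Ddx3y, Ddx4, Ddx25, Ddx43, Ddx53 or Ddx60, and they were not analysed here.

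Values are log2 CPM, the log2 of reads per 1000000 after the authors' scaling of the libraries, and the samples held 18660287 to 31260831 reads on the listed RNAs. A floor of 3 reads stood at 0.0890 to 0.176 CPM, depending on the depth of the sample. Mean log2 CPM was above 0.5 for 48 members, all but Dhx30 and Ddx26b. Per kilobase of exon, Ddx39b stood highest, at 56.0 CPM per kb as a mean of the 16 samples (SD 9.89). Ddx56 (34.0, SD 4.07), Ddx39 (32.7, SD 3.88), Ddx5 (31.8, SD 3.25) and Ddx17 (28.7, SD 4.21) followed, each within 1 SD of the next. This order is that of the mean over all samples. Ddx39b stood first in each of the 4 groups, but next came Ddx39 in HBB protrusions (37.9 CPM per kb), Ddx5 in Pkp4 cUTR protrusions (35.2) and Ddx56 in both cell body groups. Dhx30 stood lowest, at 0.0536 CPM per kb (SD 0.0347).
Of 9 fibroblast markers 8 were listed, with Thy1 not among the rows, and in both lines 2 were higher and 6 lower in protrusions. Their summed level was 14.23 to 14.32 log2 CPM in HBB protrusions against 14.69 to 14.91 in HBB cell bodies, and 14.37 to 14.46 against 14.66 to 14.94 in the Pkp4 cUTR line. Of 8 markers of other cell types 5 were listed, with Epcam, Krt18 and Ptprc not among the rows. Of these 5, 1 was higher and 3 lower in HBB protrusions, and 1 and 1 in Pkp4 cUTR protrusions. Their sum was 5.96 to 6.18 log2 CPM in HBB protrusions against 5.52 to 5.70 in cell bodies, and 5.45 to 5.66 against 5.10 to 5.203 in the Pkp4 cUTR line. The marker higher in protrusions was Des, the intermediate filament protein of muscle, at a log2(FC) of 0.67 in HBB and 0.69 in Pkp4 cUTR cells (adjusted p = 2.95e-06 and 4.82e-06). The sum of the 4 listed nuclear RNAs was 7.34 to 8.31 log2 CPM in HBB protrusions against 9.18 to 9.50 in HBB cell bodies, and 7.57 to 8.12 against 8.90 to 9.08 in the Pkp4 cUTR line. The 4 did not move as one. In HBB protrusions Malat1 had a log2(FC) of −1.85 and Neat1, the most abundant of them, −1.48, whereas Mirg was higher by 0.65 (adjusted p = 0.0096) and Kcnq1ot1 did not pass (−0.55, adjusted p = 0.161). The part of these marker differences in the results on helicase RNAs was not tested. Replicate 4 of both cell body groups stood apart from the other cell bodies, with a median absolute deviation from the other 3 samples of its group of 0.163 (HBB) and 0.195 log2 CPM (Pkp4 cUTR), against 0.0924 to 0.148 for the other 6 cell bodies. Pkp4 cUTR protrusion 3 had 0.182. Without both of these cell body samples, 13 members were higher and 16 lower in HBB protrusions, 13 and 17 in Pkp4 cUTR protrusions, and 0 and 4 differed between the lines in cell bodies and in protrusions. Of all RNAs, 29.4% and 30.9% were then called in HBB and 30.95% and 30.8% in Pkp4 cUTR protrusions. Between the lines 2% were higher and 3.95% lower in cell bodies, and 4.13% and 5.81% in protrusions. A level is a share of the RNA of its fraction, so that less of an RNA per cell and fewer cells or cell parts cannot be told apart.

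The first question was which helicase RNAs differed between protrusions and cell bodies. In HBB cells 13 members were higher in protrusions and 17 were lower (limma-voom, adjusted p under 0.05 over all 12900 RNAs), 26% and 34% of the members. The same call was made for 28.3% and 28.9% of all RNAs. In Pkp4 cUTR cells 14 were higher and 15 lower, 28% and 30%, against 28.2% and 28.5% of all RNAs. In both lines 10 members were higher (24.1% of all RNAs) and 15 were lower (25.3% of all RNAs). The family as a whole was thus split about as all RNAs were. The 4 protrusion samples all lay above the 4 cell body samples for 12 members in HBB (25.5% of all RNAs) and 12 in Pkp4 cUTR cells (22.6%), and all below them for 18 (26.8%) and 10 (22.2%). The median log2(FC), protrusions over cell bodies, was −0.01 in HBB and −0.02 in Pkp4 cUTR cells, beside 0.01 over all RNAs in both lines. With each library scaled to its own total of reads, the median log2(FC) of all RNAs moved to −0.23 (HBB) and −0.25 (Pkp4 cUTR). The split of the members became 7 higher and 27 lower in HBB and 9 and 27 in Pkp4 cUTR cells. That scaling called 15.04% of all RNAs higher and 43.52% lower in HBB, and 13.93% and 45.48% in Pkp4 cUTR cells. Under the paper's rule of more than 2-fold and p under 0.05 unadjusted, no member was higher in HBB protrusions (4.54% of all RNAs) and 1, Dhx30, was lower (4% of all RNAs). Under the same rule 4 were higher in Pkp4 cUTR protrusions, Ddx10, Dhx36, Ddx52 and Dhx40 (5.07% of all RNAs), and none was lower (2.92% of all RNAs).

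**Figure D1:**
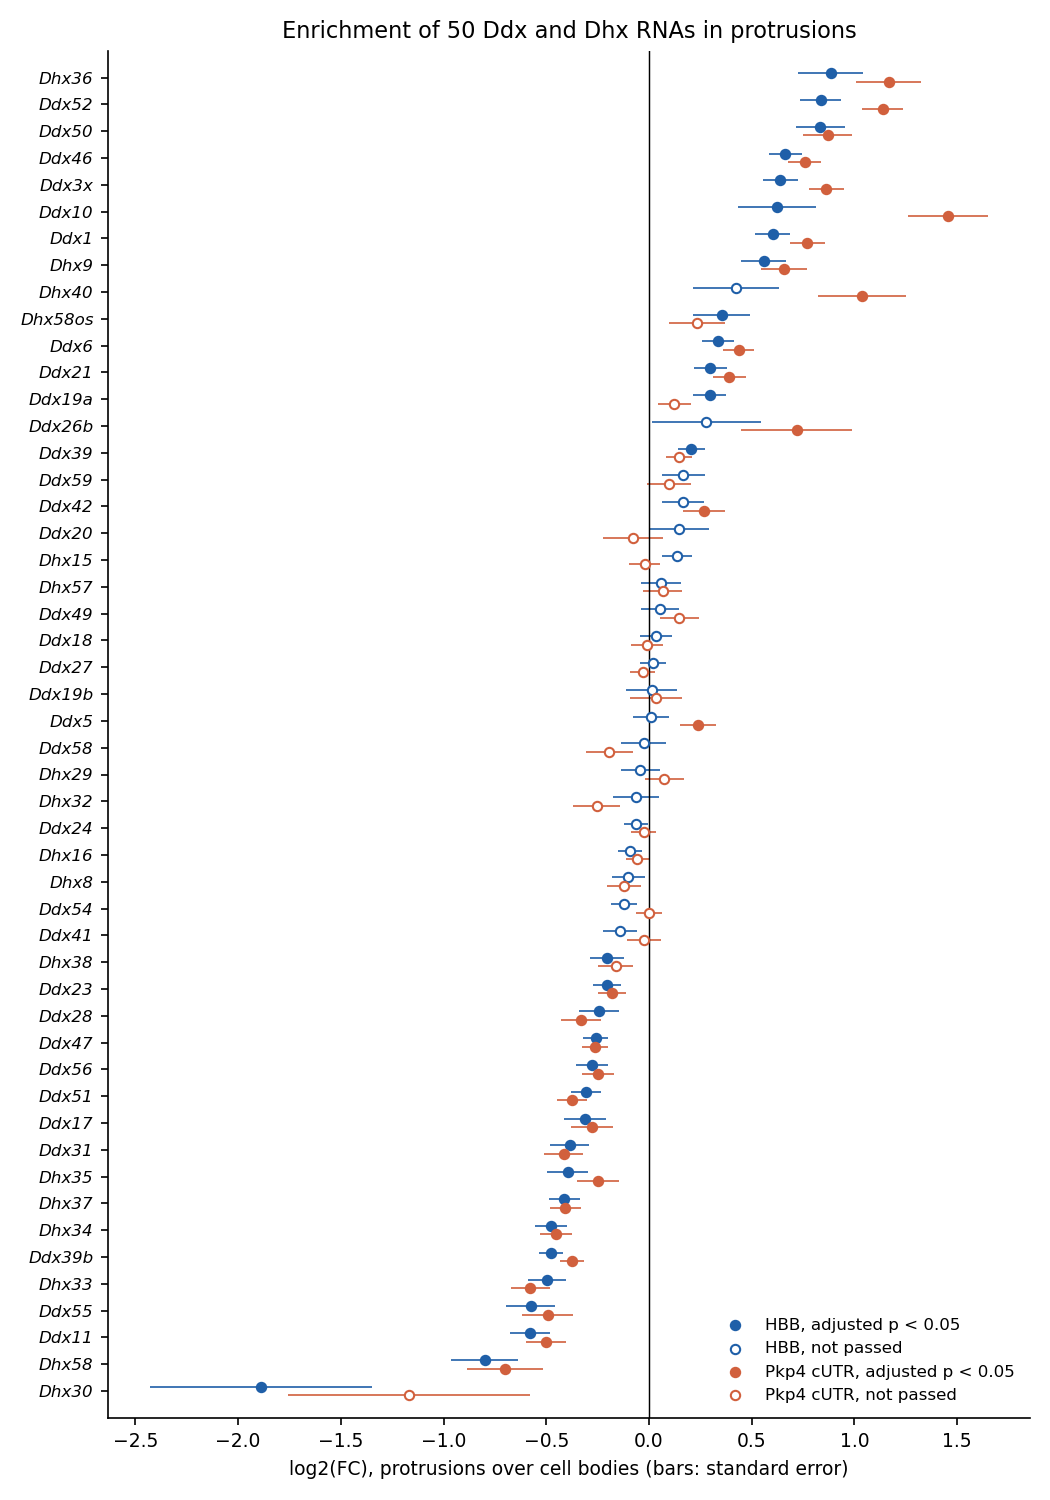
log2(FC), protrusions over cell bodies, of the 50 Ddx and Dhx RNAs in HBB (blue) and Pkp4 cUTR cells (orange), with standard errors from limma-voom, in the order of the HBB values. Filled points had an adjusted p under 0.05. The 10 RNAs filled on the right in both colours and the 15 filled on the left in both were called in both lines. Scaled to total reads, the HBB value of Ddx39 turned to −0.03 and the Pkp4 cUTR value of Ddx5 to −0.03.

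Among the 5 helicases of translation and of mRNA fate in the cytoplasm, 3 were higher in protrusions of both lines, 1 was lower, and Dhx29, which acts in initiation on structured mRNAs, passed in neither. Over all RNAs, 24.1% were higher and 25.3% lower in both lines. The median log2(FC) of the 5 was 0.34 in HBB and 0.44 in Pkp4 cUTR cells.
Dhx36 (chromosome 3, 62468013 to 62507004) encodes a helicase that resolves G-quadruplexes. Its log2 CPM was 3.05, 3.69, 3.35 and 3.03 in HBB protrusions and 2.61, 2.57, 2.14 and 2.23 in HBB cell bodies. In the Pkp4 cUTR line it was 3.29, 3.81, 3.55 and 3.45 in protrusions and 2.45, 2.22, 2.18 and 2.55 in cell bodies. Every protrusion sample lay above every cell body sample. The log2(FC) was 0.89 (SE 0.16, limma-voom adjusted p = 0.000122) in HBB and 1.17 (SE 0.16, adjusted p = 8.08e-06) in Pkp4 cUTR cells, 1.85-fold and 2.25-fold.
Ddx3x (chromosome X, 13280970 to 13294052) encodes a DEAD-box factor that aids initiation on mRNAs with structured 5′ ends. HBB protrusions stood at 5.45, 5.70, 5.43 and 5.64 log2 CPM against 5.07, 4.87, 4.86 and 4.86 in cell bodies. Pkp4 cUTR protrusions stood at 5.66, 5.87, 5.84 and 5.86 against 4.99, 4.90, 4.77 and 5.11. The fractions did not overlap in either line. Its log2(FC) was 0.64 (SE 0.09, adjusted p = 6.32e-06) and 0.86 (SE 0.09, adjusted p = 3.12e-07).
Ddx6, a repressor of translation and a component of P-bodies, was higher by less, with a log2(FC) of 0.34 (SE 0.08, adjusted p = 0.00105) in HBB and 0.44 (SE 0.08, adjusted p = 0.000107) in Pkp4 cUTR protrusions. It stood at 6.08 to 6.33 log2 CPM in HBB protrusions and 5.78 to 5.98 in HBB cell bodies. The Ddx6 call was lost in both lines when a trend on transcript GC content was removed (log2(FC) 0.04 and 0.12, adjusted p = 0.569 and 0.0819), and likewise with libraries scaled to their totals (0.10 and 0.17, adjusted p = 0.386 and 0.128).
Dhx34, which takes part in nonsense-mediated decay, went the other way. Its log2 CPM was 4.48, 4.26, 4.44 and 4.50 in HBB protrusions against 4.93, 4.88, 4.92 and 4.87 in cell bodies, a log2(FC) of −0.48 (SE 0.08, adjusted p = 4.64e-05). In Pkp4 cUTR cells the log2(FC) was −0.45 (SE 0.08, adjusted p = 9.62e-05).

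Among 16 members known for ribosome biogenesis, the largest role list, 4 were higher and 7 lower in protrusions of both lines, and 5 passed in neither. Beside this, 24.1% of all RNAs were higher and 25.3% lower in both lines. The median log2(FC) was −0.09 in HBB and −0.03 in Pkp4 cUTR cells.
Ddx52 (chromosome 11, 83942062 to 83963088), the counterpart of a yeast factor of the small ribosomal subunit, was one of the higher members. Its log2 CPM was 3.60, 3.60, 3.53 and 3.75 in HBB protrusions and 2.72, 2.76, 2.88 and 2.78 in cell bodies. It was 3.75, 3.91, 4.09 and 3.83 in Pkp4 cUTR protrusions and 2.77, 2.58, 2.69 and 2.99 in cell bodies. The gap between the fractions was several times the spread within them. The log2(FC) was 0.84 (SE 0.10, adjusted p = 1.58e-06) in HBB and 1.14 (SE 0.10, adjusted p = 8.49e-08) in Pkp4 cUTR cells.
Ddx10, also a factor of the small subunit, was a low RNA with 27 to 81 reads per sample. HBB protrusions gave 1.01, 1.36, 1.34 and 1.36 log2 CPM against 0.79, 0.80, 0.58 and 0.31 in cell bodies. Pkp4 cUTR protrusions gave 1.46, 2.11, 2.04 and 1.51 against 0.07, 0.16, 0.46 and 0.57. The log2(FC) was 0.62 (SE 0.19, adjusted p = 0.00958) and 1.46 (SE 0.19, adjusted p = 6.36e-06), the latter 2.74-fold and the highest of the 50 in that line. The HBB value did not pass with the GC trend removed (0.31, adjusted p = 0.124) or with libraries scaled to their totals (0.39, adjusted p = 0.0874).
Dhx33, a nucleolar DEAH-box helicase tied to transcription of ribosomal RNA, was lower in protrusions. It stood at 4.18, 4.41, 4.38 and 4.48 log2 CPM in HBB protrusions against 4.81, 4.81, 5.00 and 4.81 in cell bodies. In the Pkp4 cUTR line it stood at 4.47, 4.36, 4.13 and 4.51 against 4.92, 5.02, 5.07 and 4.78. Its log2(FC) was −0.50 (SE 0.09, adjusted p = 0.000198) and −0.58 (SE 0.09, adjusted p = 5.29e-05).
Ddx55, a factor of the large subunit, had a log2(FC) of −0.58 (SE 0.12, adjusted p = 0.000514) in HBB and −0.49 (SE 0.12, adjusted p = 0.00234) in Pkp4 cUTR cells. Its Pkp4 cUTR cell bodies spread from 3.08 to 3.66 log2 CPM, and those of HBB from 3.48 to 3.53. Dhx37, needed for the small subunit, had a log2(FC) of −0.41 in both lines (SE 0.08, adjusted p = 0.000176 and 0.000253).
The other lower members were Ddx31, Ddx51, Ddx56 and Ddx47, with log2(FC) from −0.39 to −0.26 in HBB and from −0.42 to −0.25 in Pkp4 cUTR cells. Ddx18, Ddx24, Ddx27, Ddx49 and Ddx54 lay between −0.12 and 0.05 in HBB cells and passed in neither line. Exons of Ddx49 and Ddx54 overlap genes on the other strand, for Ddx49 over 29.9% of its exon bases (Homer3), and the sources used here do not give the strand setting of the counting.

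**Figure D2:**
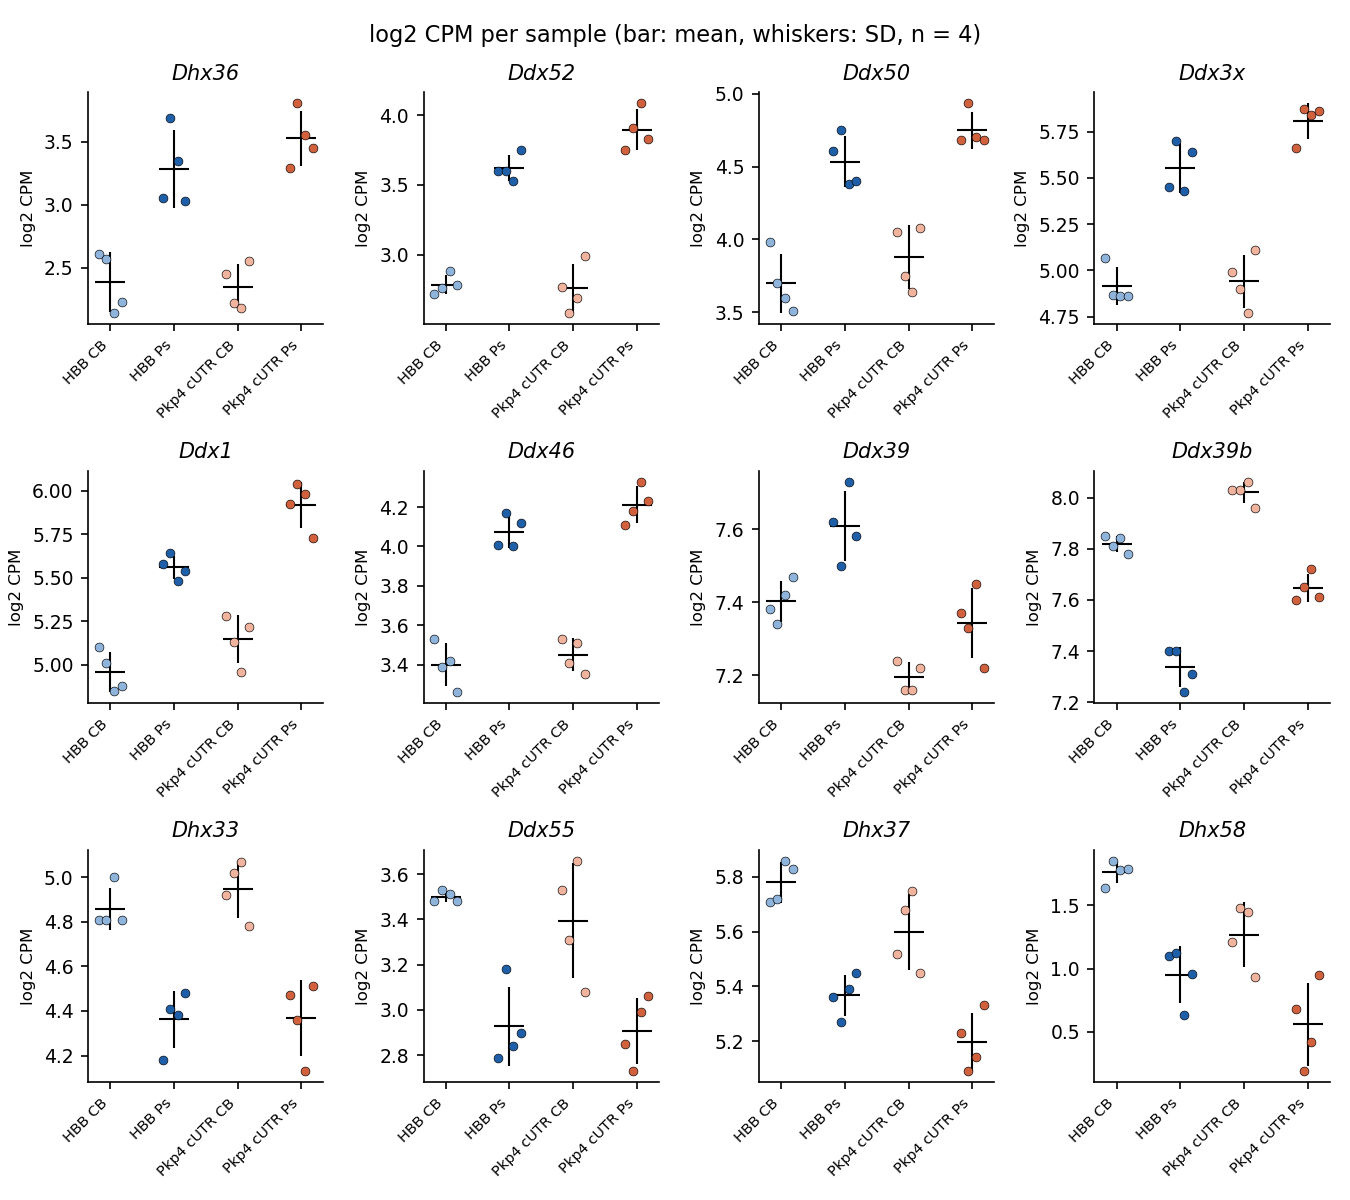
log2 CPM in each of the 16 samples for 12 helicase RNAs, with the mean (bar) and SD (whiskers) of each group of 4. In the first 6 panels the protrusions of each line lie above its cell bodies without overlap, and Ddx39 and Ddx39b, in the next, move in opposite directions. Each panel has its own axis. Scaled to total reads, the log2(FC) of Ddx39 turned to −0.03 in HBB and to −0.12 in Pkp4 cUTR cells.

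Of 9 splicing helicases, 1 was higher and 3 were lower in HBB protrusions, and 2 were higher and 2 lower in Pkp4 cUTR protrusions. The shares of all RNAs were 28.3% higher and 28.9% lower in HBB, and 28.2% and 28.5% in Pkp4 cUTR protrusions. Ddx46, the helicase that acts with the U2 snRNP at the branch site, was the one higher in both. Its log2 CPM was 4.01, 4.17, 4.00 and 4.12 in HBB protrusions and 3.53, 3.39, 3.42 and 3.26 in cell bodies. It was 4.11, 4.18, 4.33 and 4.23 in Pkp4 cUTR protrusions and 3.53, 3.41, 3.51 and 3.35 in cell bodies. Protrusions lay above cell bodies without overlap in both lines. The log2(FC) was 0.66 (SE 0.08, adjusted p = 2.25e-06) in HBB and 0.76 (SE 0.08, adjusted p = 6.59e-07) in Pkp4 cUTR cells.
The lower splicing members changed less. Dhx35 stood at 4.51, 4.58, 4.70 and 4.79 log2 CPM in HBB protrusions against 4.92, 5.06, 5.08 and 5.10 in cell bodies, a log2(FC) of −0.40 (SE 0.10, adjusted p = 0.00251). In Pkp4 cUTR cells its log2(FC) of −0.25 (adjusted p = 0.0468) passed by little and was lost without replicate 1, 2 or 3 of either Pkp4 cUTR fraction or replicate 2 or 3 of either HBB fraction (−0.27 to −0.17, adjusted p from 0.0513 to 0.166). Dhx38, which acts at the second step of splicing, had a log2(FC) of −0.20 (adjusted p = 0.0441) in HBB and −0.16 (adjusted p = 0.107) in Pkp4 cUTR cells. Ddx23, a helicase of the tri-snRNP, had a log2(FC) of −0.21 in HBB (adjusted p = 0.0148) and −0.18 in Pkp4 cUTR cells (adjusted p = 0.0294). Dhx15, which takes spliceosomes apart, Dhx8, Dhx16 and Ddx41 passed in neither line, with log2(FC) from −0.14 to 0.14 in HBB cells.

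Among 5 members known as transcriptional coregulators or in RNA processing, Ddx1 and Dhx9 were higher in protrusions of both lines (24.1% of all RNAs) and Ddx17 was lower (25.3% of all RNAs). Ddx1, part of the tRNA ligase complex and of RNA transport granules, stood at 5.58, 5.64, 5.48 and 5.54 log2 CPM in HBB protrusions and at 5.10, 5.01, 4.85 and 4.88 in cell bodies. In the Pkp4 cUTR line it stood at 5.92, 6.04, 5.98 and 5.73 against 5.28, 5.13, 4.96 and 5.22. All 8 protrusion samples lay above all 8 cell body samples. Its log2(FC) was 0.60 (SE 0.09, adjusted p = 1.16e-05) and 0.77 (SE 0.08, adjusted p = 8.73e-07).
Dhx9, a nuclear helicase of long RNA duplexes, stood at 4.25, 4.48, 4.30 and 4.23 log2 CPM in HBB protrusions against 3.95, 3.84, 3.79 and 3.39 in cell bodies. Its log2(FC) was 0.56 (SE 0.11, adjusted p = 0.000311), and in Pkp4 cUTR cells 0.66 (SE 0.11, adjusted p = 8.53e-05). Ddx20, of the SMN complex, had log2(FC) of 0.15 and −0.08 and passed in neither.

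The remaining lists held 1 to 4 RNAs each. Of the mitochondrial pair, Ddx28 was lower in both lines, with a log2(FC) of −0.24 (adjusted p = 0.0406) and −0.33 (adjusted p = 0.00727). Neither call was kept with the GC trend removed (−0.06 and −0.18, adjusted p = 0.609 and 0.125). The HBB call of Ddx28 was also lost with quantile normalization (−0.18, adjusted p = 0.144) or median centring (−0.22, adjusted p = 0.0755), and without replicate 3 or 4 of the cell bodies (−0.23 and −0.19, adjusted p = 0.0852 and 0.111) or replicate 1, 2 or 3 of the protrusions (−0.24, −0.25 and −0.21, adjusted p = 0.07, 0.058 and 0.109). Dhx30 had 1 to 13 reads in HBB protrusions against 21 to 47 in HBB cell bodies, and 1 to 11 against 9 to 25 in the Pkp4 cUTR line. At these counts its log2(FC) of −1.89 (SE 0.54, adjusted p = 0.00599) in HBB and −1.17 (SE 0.59, adjusted p = 0.0975) in Pkp4 cUTR cells is imprecise.
Of the sensors of foreign RNA, Dhx58 (LGP2) was lower in protrusions and Ddx58 (RIG-I) passed in neither line. Dhx58, with 19 to 115 reads, stood at 1.10, 1.12, 0.63 and 0.96 log2 CPM in HBB protrusions against 1.64, 1.85, 1.78 and 1.79 in cell bodies. Its log2(FC) was −0.80 (SE 0.16, adjusted p = 0.000395) in HBB and −0.70 (SE 0.19, adjusted p = 0.00359) in Pkp4 cUTR cells. Its antisense neighbour Dhx58os went the other way in HBB cells, with a log2(FC) of 0.35 (SE 0.14, adjusted p = 0.0367), and 0.23 (adjusted p = 0.149) in Pkp4 cUTR cells. The Dhx58os groups overlapped, and its call was lost without HBB cell bodies 2 or 3 (0.32 and 0.24, adjusted p = 0.0872 and 0.162) or HBB protrusions 1 or 2 (0.26 and 0.37, adjusted p = 0.144 and 0.0525). Without the strand setting of the counting, reads from Dhx58 and Dhx58os over their shared bases cannot be told apart.
Ddx11, a DNA helicase, had a log2(FC) of −0.58 (SE 0.10, adjusted p = 7.84e-05) in HBB and −0.50 (SE 0.10, adjusted p = 0.000332) in Pkp4 cUTR cells. Dhx40, of no assigned role here, had 0.42 (SE 0.21, adjusted p = 0.0908) and 1.04 (SE 0.21, adjusted p = 0.000495). Ddx26b, at 11 to 30 reads, had 0.28 (adjusted p = 0.381) and 0.72 (adjusted p = 0.03), and the latter call was lost without Pkp4 cUTR cell bodies 2 or 4 (0.49 and 0.62, adjusted p = 0.125 and 0.0702) or protrusions 2 or 3 (0.69 in both, adjusted p = 0.0603 and 0.063). Dhx32, Dhx57 and Ddx59 passed in neither line, nor did Ddx42 in HBB cells, which had 0.27 (adjusted p = 0.0301) in Pkp4 cUTR cells.

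**Figure D3:**
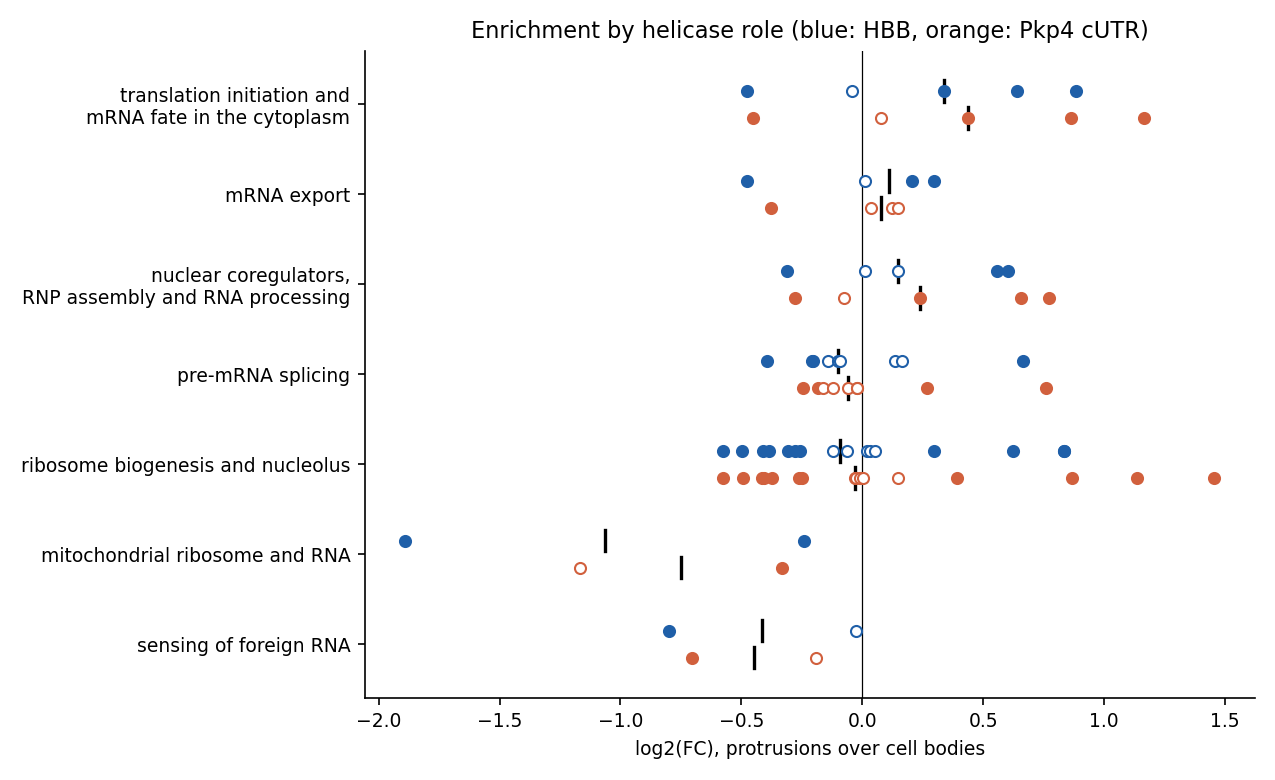
log2(FC), protrusions over cell bodies, of the helicase RNAs of 7 role lists, in HBB (blue) and Pkp4 cUTR cells (orange). Each point is 1 RNA, filled at an adjusted p under 0.05, and black bars mark the median. The ribosome biogenesis list spans −0.58 to 0.84 in HBB cells. Scaled to total reads, the HBB value of Ddx39 (mRNA export) turned to −0.03 and the Pkp4 cUTR value of Ddx5 (coregulators) to −0.03.

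For 4 pairs of close relatives within the family, the log2(FC) of both members and the ratio between them were set side by side. The pairs were chosen with values of these data known, so the ratios are given as a description, with no test. Ddx39 and Ddx39b (also known as URH49 and UAP56), both ATPases of mRNA export with the DECD motif, had opposite directions under the authors' scaling. Ddx39 stood at 7.62, 7.50, 7.73 and 7.58 log2 CPM in HBB protrusions and at 7.38, 7.34, 7.42 and 7.47 in cell bodies. Ddx39b stood at 7.40, 7.40, 7.24 and 7.31 against 7.85, 7.81, 7.84 and 7.78. No value of one fraction reached those of the other. The log2(FC) in HBB cells was 0.21 (SE 0.06, adjusted p = 0.0107) for Ddx39, which turned to −0.03 when libraries were scaled to their totals, and −0.48 (SE 0.06, adjusted p = 1.95e-06) for Ddx39b.
In Pkp4 cUTR cells Ddx39 stood at 7.37, 7.33, 7.45 and 7.22 against 7.24, 7.16, 7.16 and 7.22 log2 CPM, a log2(FC) of 0.15 (adjusted p = 0.0604). With libraries scaled to their totals this value turned to −0.12 (limma-voom adjusted p = 0.0648). Ddx39b stood at 7.60, 7.65, 7.72 and 7.61 against 8.03, 8.03, 8.06 and 7.96, a log2(FC) of −0.38 (SE 0.06, adjusted p = 3.11e-05). The ratio of such a pair within a sample does not depend on the scaling of the library. The log2 ratio of Ddx39 over Ddx39b was 0.27 ± 0.16 in HBB protrusions and −0.42 ± 0.074 in HBB cell bodies (SD, n = 4), a change of 0.68. The Pkp4 cUTR ratio was −0.30 ± 0.064 and −0.83 ± 0.074 (SD, n = 4), a change of 0.52. The reads of Ddx39 may include some of Adgre5, which overlaps 17.4% of its exon bases on the other strand.
Ddx21 and Ddx50 lie next to each other on chromosome 10 (62580251 to 62602281 and 62615895 to 62651218) and encode nucleolar helicases. Ddx50 stood at 4.61, 4.75, 4.38 and 4.40 log2 CPM in HBB protrusions against 3.98, 3.70, 3.60 and 3.51 in cell bodies, a log2(FC) of 0.83 (SE 0.12, adjusted p = 1.34e-05). Ddx21 stood at 5.76, 5.85, 5.68 and 5.85 against 5.66, 5.46, 5.52 and 5.28, a log2(FC) of 0.30 (SE 0.08, adjusted p = 0.00405). Both were higher in protrusions. In Pkp4 cUTR cells the log2(FC) was 0.87 (SE 0.12, adjusted p = 8.41e-06) for Ddx50 and 0.39 (SE 0.08, adjusted p = 0.000454) for Ddx21. Scaled to total reads, Ddx21 no longer passed in either line (0.06 and 0.13, adjusted p = 0.611 and 0.252), while Ddx50 did (0.60 in both, adjusted p = 0.000835 and 0.000633). The log2 ratio of Ddx21 over Ddx50 was lower in protrusions without overlap, with a change of −0.54 in HBB and −0.48 in Pkp4 cUTR cells.
Ddx5 and Ddx17 (p68 and p72) are coregulators with overlapping functions. Ddx17 was lower in HBB protrusions, at 7.60, 7.67, 7.50 and 7.51 log2 CPM against 7.94, 8.02, 7.89 and 7.68 (log2(FC) −0.31, SE 0.10, adjusted p = 0.0141), a call lost without replicate 2 of the HBB cell bodies (−0.27, adjusted p = 0.0514). The Pkp4 cUTR value was −0.28 (adjusted p = 0.0259), lost without cell body 2 or 3 (−0.23 in both, adjusted p = 0.0853 and 0.0861) or protrusion 3 (−0.19, adjusted p = 0.106). Ddx5 had a log2(FC) of 0.01 (adjusted p = 0.922) in HBB cells. Its Pkp4 cUTR protrusions were higher by 0.24 (SE 0.09, adjusted p = 0.0287), a value that turned to −0.03 with libraries scaled to their totals and to −0.21 (adjusted p = 0.00517) with the GC trend removed. That Ddx5 call was also lost without cell body 2 (0.18, adjusted p = 0.113) or without protrusion 2, 3 or 4 (0.21, 0.22 and 0.23, adjusted p = 0.0802, 0.0658 and 0.0507). The log2 ratio of Ddx5 over Ddx17 was higher by 0.32 in HBB protrusions, without overlap, and by 0.52 in Pkp4 cUTR protrusions, where the fractions overlapped.
Ddx19a and Ddx19b encode near-identical export factors, so that their reads may have been divided unevenly. Ddx19a was higher in HBB protrusions, at 5.29, 5.25, 5.33 and 5.34 log2 CPM against 5.06, 5.10, 4.97 and 4.89 (log2(FC) 0.30, SE 0.08, adjusted p = 0.00436), which did not pass with libraries scaled to their totals (0.06, adjusted p = 0.62), and Ddx19b had 0.01 (adjusted p = 0.943). The Pkp4 cUTR values were 0.12 (adjusted p = 0.204) and 0.03 (adjusted p = 0.833). The log2 ratio of Ddx19a over Ddx19b was higher by 0.27 in HBB protrusions, and by 0.09 in Pkp4 cUTR protrusions, where the fractions overlapped. In that line neither member of the pair passed.

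GC content of the transcript moved with the enrichment. Across the 50 members log2(FC) and GC content had a Pearson r of −0.647 in HBB and −0.699 in Pkp4 cUTR cells (Spearman rho −0.668 and −0.638), beside r of −0.336 and −0.341 over the 12765 RNAs with a GC value. These are correlations across genes measured in shared libraries, and genes are not independent replicates. The 13 members higher in HBB protrusions had a median GC content of 44.6% (40.0 to 54.1%), the 17 lower ones 53.9% (49.1 to 59.6%) and the 20 others 49.8% (41.6 to 59.1%). The median 3′UTR was 2265 bases long in the higher, 663 in the lower and 470 in the other members. Yet log2(FC) in HBB cells and log2 of 3′UTR length had only an r of 0.36 (rho 0.268) across 49 members. Over 11353 RNAs the sign was the opposite, with an r of −0.0838 (rho −0.0893).
When the trend on GC content was removed from each sample, 15 members were higher and 15 lower in HBB cells, and 15 and 14 in Pkp4 cUTR cells. Of all RNAs with a GC value, 25.9% and 26.6% were then called in HBB and 25.4% and 27.7% in Pkp4 cUTR cells. Dhx36, Ddx52, Ddx50, Ddx3x, Ddx46, Ddx1, Dhx9 and Ddx21 passed in both lines in that fit as well, with smaller values. Ddx3x went from 0.64 to 0.20 (adjusted p = 0.00507) in HBB and from 0.86 to 0.37 in Pkp4 cUTR cells, and Dhx36 from 0.89 to 0.40 (adjusted p = 0.00841) and from 1.17 to 0.61. The other 6 lay between 0.17 (Ddx21) and 0.57 (Ddx52) in HBB cells. In HBB cells 6 calls were lost, those of Ddx6, Ddx10, Ddx28, Ddx56 (−0.11, adjusted p = 0.217), Ddx23 (−0.06, adjusted p = 0.428) and Dhx38, which turned to 0.02 (adjusted p = 0.857). In Pkp4 cUTR cells Ddx6, Ddx23, Ddx26b, Ddx28, Ddx42, Ddx56 and Dhx35 no longer passed, and Ddx5 turned. Members close to 0 in the first fit moved past the threshold: Ddx5 to −0.39 and Ddx49 to 0.29 in HBB cells (adjusted p = 2.2e-05 and 0.00935). The removal was chosen after the data had been seen.

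**Figure D4:**
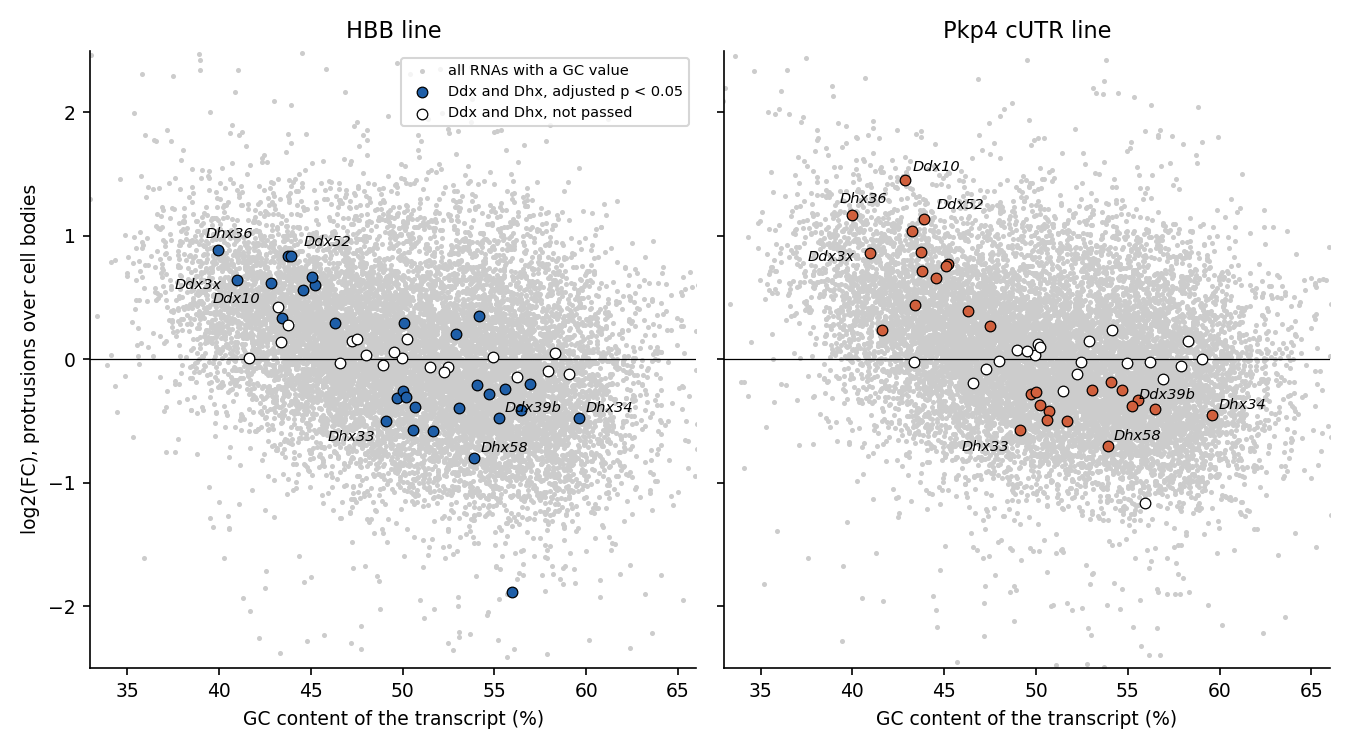
log2(FC), protrusions over cell bodies, against the GC content of the transcript in percent, for HBB (left) and Pkp4 cUTR cells (right). Grey points are all RNAs with a GC value inside the axes, circles the 50 helicase RNAs, filled at an adjusted p under 0.05. Dhx36, at 40.0% GC, lies highest in HBB cells at 0.89, Dhx34, at 59.6%, lies at −0.48, and Ddx5, at 41.6%, lies at 0.01. Scaled to total reads, the HBB value of Ddx39 and the Pkp4 cUTR value of Ddx5 turned to −0.03.

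RNA helicases that carry other symbols also included both higher and lower RNAs. Of 19 listed, 3 were higher and 9 lower in HBB protrusions, and 5 and 8 in Pkp4 cUTR protrusions, with a median log2(FC) of −0.20 and −0.24. Among all RNAs, 28.3% were higher and 28.9% lower in HBB, and 28.2% and 28.5% in Pkp4 cUTR protrusions. Skiv2l2, the helicase of the nuclear exosome, was higher by 0.71 (adjusted p = 6.06e-06) in HBB cells. Upf1, the central factor of nonsense-mediated decay, was lower by a log2(FC) of −0.86 (adjusted p = 6.33e-08), Helz2 by −1.13 (adjusted p = 2.35e-05), Dqx1 by −1.01 (adjusted p = 0.000369) and Ighmbp2 by −0.60 (adjusted p = 2.34e-05). Of the founding DEAD-box proteins of the eIF4A family, Eif4a2 was higher by 0.27 (adjusted p = 0.00641), and Eif4a1 and Eif4a3 had log2(FC) of 0.16 (adjusted p = 0.0555) and 0.01 (adjusted p = 0.946). As a list, the comparison helicases and the Ddx and Dhx members were not tested against each other.

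The next question was whether expression of the Pkp4 3′UTR changed the enrichment of helicase RNAs, measured as log2(Diff FC), the log2(FC) of Pkp4 cUTR cells minus that of HBB cells. No member passed limma-voom at an adjusted p under 0.05, nor did any of the 12900 RNAs (0%). At an unadjusted p under 0.05, 2 members had a higher log2(FC) in Pkp4 cUTR cells (1.36% of all RNAs) and 0 a lower one (0.961% of all RNAs). At an adjusted p under 0.05, the count of members was also 0 in the fits without precision weights, with other scalings and with the replicate blocks. The 5 members with the smallest p all had positive values. Ddx10 had a log2(Diff FC) of 0.83 (SE 0.27), Ddx52 one of 0.30 (SE 0.14), Dhx40 one of 0.61 (SE 0.30), Ddx3x one of 0.22 (SE 0.12) and Ddx5 one of 0.23 (SE 0.12), and the limma-voom adjusted p of all 5 was 1.00. Over the members, 34 of 50 values were above 0 (68%), with a median of 0.04, against 51.6% and a median of 0.01 over all RNAs. The log2(FC) of both lines had an r of 0.92 across the members (rho 0.953) and of 0.913 across all RNAs with a GC value, across genes in both cases.

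Last, the lines were compared within a fraction, Pkp4 cUTR over HBB. In cell bodies 1 member was higher (Ddx39b, 3.42% of all RNAs) and 1 lower (Dhx58, 5.55% of all RNAs). In protrusions 2 were higher (Ddx39b and Ddx1, 2.89% of all RNAs) and 1 was lower (Ddx39, 4.26% of all RNAs). Samples that carried one number in both lines shared part of their deviations, so the replicate number was also fitted as a block.
Ddx39b, whose values are given above, was higher in Pkp4 cUTR cells by a log2(FC) of 0.20 in cell bodies (SE 0.06, adjusted p = 0.0366) and 0.30 in protrusions (SE 0.06, adjusted p = 0.0029). The lines did not overlap in either fraction. With the replicate block the adjusted p was 0.0323 and 0.00285. Without any single HBB cell body, or without replicate 1, 2 or 3 of the Pkp4 cUTR cell bodies, the value in cell bodies no longer passed (0.19 to 0.21, adjusted p from 0.0686 to 0.0925).
Ddx39 was lower in Pkp4 cUTR protrusions by a log2(FC) of −0.27 (SE 0.06, adjusted p = 0.0153). In cell bodies it had −0.21 (SE 0.06, adjusted p = 0.0503), which passed with the block (adjusted p = 0.037). The pair thus differed between lines in opposite directions. The protrusion call was lost without HBB replicate 3 or Pkp4 cUTR replicate 4 (−0.23 in both, adjusted p = 0.0555 and 0.0512).
Ddx1 was higher in Pkp4 cUTR protrusions by 0.36 (SE 0.08, adjusted p = 0.0148, with the block 0.0065), and no longer passed without Pkp4 cUTR protrusion 2 (0.31, adjusted p = 0.0568). In cell bodies it had 0.19 (adjusted p = 0.201). Ddx51 had −0.24 in protrusions (adjusted p = 0.0615) and passed with the block (adjusted p = 0.044).
Dhx58 had a log2(FC) of −0.49 in cell bodies (SE 0.14, adjusted p = 0.0396), which did not pass with the block (adjusted p = 0.0555) nor without any single HBB cell body, without Pkp4 cUTR cell body 1 or 4, nor without HBB protrusion 4 (−0.53 to −0.39, adjusted p from 0.0511 to 0.132). Of 12 alternative fits on other grounds than 1 left-out sample, only 1 kept the Dhx58 call (−0.52 to −0.37). It was lost without precision weights (limma adjusted p = 0.0979), with total scaling (0.0619), with quantile normalization (0.129) and with the GC trend removed (0.124). Among the markers of other cell types, Des was lower in Pkp4 cUTR cells by a log2(FC) of −0.71 in cell bodies and −0.69 in protrusions (adjusted p = 2.82e-05 and 5.35e-05), and Cdh1 was higher by 0.52 in cell bodies (adjusted p = 0.0247). Cdh5, a low RNA, had a log2(FC) of −1.21 in cell bodies (limma-voom adjusted p = 0.0226). Their part in the differences between the lines was not tested. With 1 line per construct, the 3′UTR and other differences between the lines cannot be told apart.

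**Figure D5:**
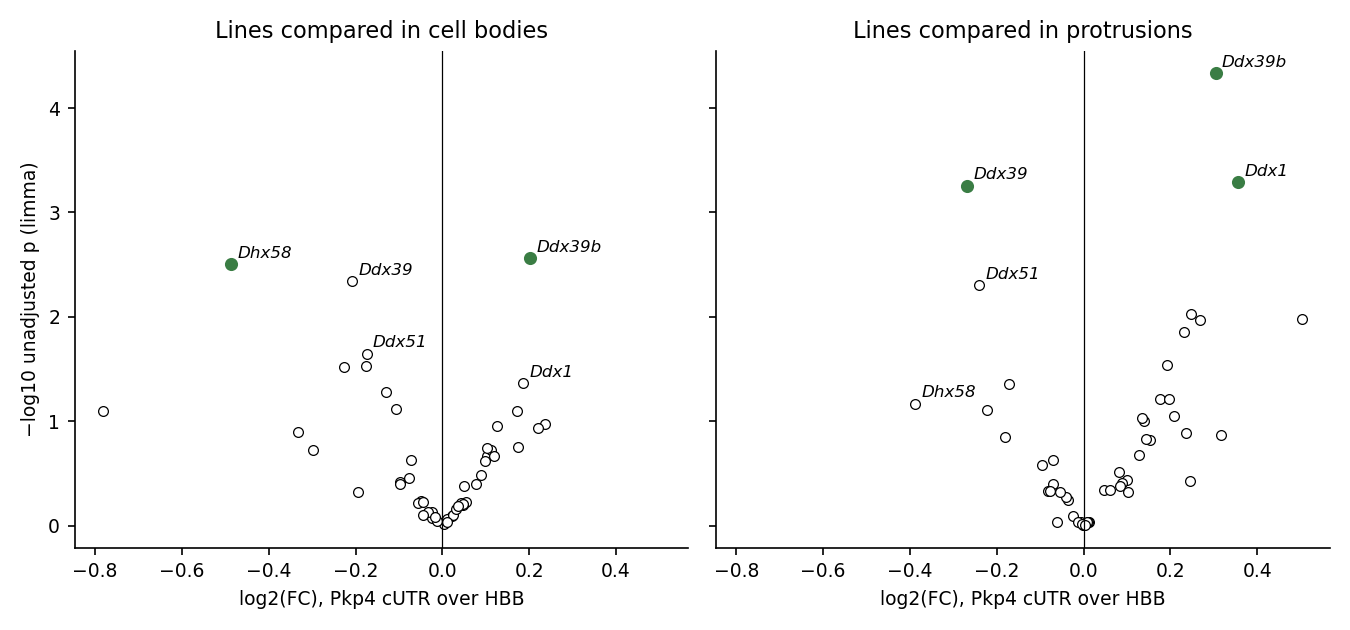
Pkp4 cUTR over HBB in cell bodies (left) and protrusions (right) for the 50 helicase RNAs, with log2(FC) on the x axis and −log10 of the unadjusted limma p on the y axis. Green points had an adjusted p under 0.05. Ddx39b lies at 0.20 and 0.30, and Ddx39 on the other side of 0 at −0.21 and −0.27.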

How the data were processed

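RNA was measured in 16 samples of NIH/3T3 cells, 4 in each of 4 groups, assigned by the line, fraction and replicate number in the labels. Per the labels and the paper, the authors made the reads with bcl2fastq 1.8.4, aligned them to mm10 with STAR 2.4.2a (2 passes), assigned them to genes with Rsubread and deposited limma-voom (limma 3.26.1) log2 CPM values, with a stated filter of a log CPM above 0.5 in at least 1 sample. Ddx26b did not exceed 0.33 log2 CPM in any sample and was listed, so not all listed RNAs meet that filter on these values. The labels describe a stranded total RNA kit and the paper a stranded mRNA kit, and the strand setting of the counting and the method behind the scaling of the libraries are not given in the sources used here.

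All deposited values (100%) came out as a whole number of reads within 0.01. The fit across all 12900 RNAs was made on these reads by limma-voom, run with limma 3.58.1 under R 4.3.3, with one mean per group and the library sizes as the authors had scaled them. P-values were adjusted by Benjamini-Hochberg over all 12900 RNAs, and an adjusted p under 0.05 was the call. The log2 ratios of relatives are given with no test. GC content and positions came from GENCODE vM21, in which 12765 of the 12900 RNAs were found, 444 of them by an older symbol, and all 50 members. The members, the role lists and the markers were chosen with earlier results of these data known.

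Named are, per line, up to 10 called members with the highest and 10 with the lowest log2(FC), in the other contrasts the called members or the 5 with the smallest p, the relatives named above, and the members known from RNA granules. Other members were named after their values had been seen, to account for each. The fit was tested on simulated independent reads with the same dispersion for all RNAs. These held no deviations shared by replicate number and no outlying samples, so they do not give the error rates in these data. Replicate numbers paired samples between the lines (correlation of same-numbered deviations 0.331 to 0.628 in cell bodies and 0.196 to 0.392 in protrusions). Between the fractions of HBB cells the correlation was 0.0455 to 0.389 (mean 0.178, against −0.0621 for different numbers). Between those of Pkp4 cUTR cells it was −0.362 to 0.00248 (mean −0.161, against 0.0611). P-values measure the spread between these samples. The alternatives were no precision weights, 3 other scalings, log2(CPM + 1), a filter on the mean, the replicate block, only the groups compared, the fold threshold, leaving out samples and removal of the GC trend.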

Additional observations from a re-analysis of the deposited data

Results flagged for a closer look

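Within the groups of 4 samples, 120 tests (30 named members in 4 groups) were made for a single sample far from the others, and 10 samples exceeded the critical value of Dixon's test. Chance gives about 1 in 20 groups. Ddx10 stood at 1.01 log2 CPM in HBB protrusion 1 (the others 1.34 to 1.36), which puts its HBB enrichment lower with that sample than without it. Ddx3x stood at 5.07 in HBB cell body 1 (4.86 to 4.87) and at 5.66 in Pkp4 cUTR protrusion 1 (5.84 to 5.87). Pkp4 cUTR protrusion 2 was high for the neighbours Ddx21, at 6.06 (5.94 to 5.95), and Ddx50, at 4.94 (4.68 to 4.70). Ddx19b was low at 2.73 in HBB protrusion 2 (2.91 to 2.94) and at 2.52 in HBB cell body 4 (2.94 to 2.98). Ddx51 stood at 5.03 in HBB protrusion 4 (4.92 to 4.94), Dhx33 at 5.00 in HBB cell body 3 (the others 4.81) and Dhx34 at 4.70 in Pkp4 cUTR cell body 4 (4.93 to 4.96). These 10 values fell on 9 samples, and what sets these values apart was not tested.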

How the results depend on the processing

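Scaled to total reads, 7 members were higher and 27 lower in HBB protrusions and 9 and 27 in Pkp4 cUTR protrusions, with medians of −0.25 and −0.29, and Ddx39 (HBB) and Ddx5 (Pkp4 cUTR) turned to −0.03. The same scaling lowers the median of all RNAs. It called 15.04% of them higher and 43.52% lower in HBB, and 13.93% and 45.48% in Pkp4 cUTR protrusions. The threshold of 2-fold left 0 higher and 1 lower in HBB, 4 and 0 in Pkp4 cUTR, and 0 between the lines in either fraction. Of all 12900 RNAs, that threshold left 36 higher and 163 lower between the lines' cell bodies, and 48 and 150 between their protrusions. With the GC trend removed, with or without the replicate block, Ddx5 in Pkp4 cUTR cells turned to −0.21 and the Pkp4 cUTR median was 0.07 (0.01 with quantile normalization or median centring). Between the lines' cell bodies 2 members passed, but 1 without precision weights, with total scaling, with quantile normalization and with the GC trend removed (with or without the block), and 0 with median centring, in the groups compared alone and without replicate 4 of both cell bodies. In these alternative fits 2% to 4.975% of all RNAs were higher and 3.95% to 5.06% lower. Between the lines' protrusions 5 in place of 3 passed with the GC trend removed, with or without the block. Of all RNAs, 3.96% were higher and 5.39% lower in that fit, and 5.155% and 6.51% with the block. Leaving out 1 sample at a time gave 0 to 3 in cell bodies and 2 to 6 in protrusions (6 without Pkp4 cUTR protrusion 1), and 12 to 14 higher and 14 to 17 lower members in HBB, 11 to 15 and 12 to 17 in Pkp4 cUTR cells. Of all RNAs, those fits called 1.845% to 3.98% higher and 3.51% to 6.07% lower between cell bodies. Between protrusions they called 1.43% to 3.63% and 2.79% to 5.18%. Within the lines they called 25.3% to 29.3% higher and 26.1% to 29.9% lower in HBB, and 24.5% to 29.95% and 25.4% to 30.2% in Pkp4 cUTR cells. The cause of these changes was not tested. Within a line only the replicate number in the labels links the fractions. The replicate block left 13 higher and 17 lower in HBB and gave 13 and 14 in Pkp4 cUTR cells, where the calls of Ddx5 and Dhx35 were lost. Of all RNAs it called 27.8% and 28.8% in HBB and 27.7% and 28.2% in Pkp4 cUTR cells. Of the alternatives for single named members, 1461 kept direction and call, 101 lost the call and 4 turned direction. This tally includes fits that left out a sample of a group not compared, which hardly move a log2(FC). It also holds block fits that are identical for the comparisons between lines, so it is no measure of robustness. Dhx30, Ddx26b, Ddx10, Dhx40 and Dhx58 had at most 115 reads in any sample, which limits their precision most.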
